A study of Mus musculus with 6 samples.

Results

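A set of 10 genes of the bone morphogenetic protein (BMP) pathway was taken from the 18152 genes measured in the inner enamel epithelium (IEE) of the mandibular first molar. The members were the ligands *Bmp2*, *Bmp3*, *Bmp4*, *Bmp7* and *Bmp8a*, the receptors *Bmpr1a* and *Bmpr2*, the antagonist *Fst*, the intracellular inhibitor *Smad6* and the target gene *Id1*. They were chosen by name, as the rows whose gene symbol equals one of these 10 symbols, and this rule uses no measured value, though the list was drawn up with earlier results of these data known. RNA-seq libraries were made from embryos at E18.5, the bell stage, in 2 groups of 3: *Kdf1* fl/fl controls and *K14-Cre;Kdf1* fl/fl knockouts, both on a C57BL/6J background. All 6 libraries therefore carry the floxed *Kdf1* allele, and in the second group Cre under the keratin 14 promoter, which is active in epithelium including epidermis, deletes it. The labels call the controls WT, while the study's methods name them *Kdf1* fl/fl. The IEE was cut from frozen head sections by laser capture microdissection, in which an area is excised under the microscope, so that cells at its border can be included. The labels call the libraries biological replicates but do not say how many embryos went into each.

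BMPs are secreted dimers of the transforming growth factor beta superfamily. They bind type I and type II receptor kinases, which phosphorylate SMAD1, SMAD5 and SMAD9, and these enter the nucleus with SMAD4 and switch on targets such as the *Id* genes. Secreted antagonists trap the ligands, and inhibitory SMADs act as feedback inside the cell. In the tooth, BMPs pass between epithelium and mesenchyme, BMP4 takes part in ameloblast and odontoblast differentiation, and follistatin, the product of *Fst*, restrains ameloblast formation.

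Of the 10 genes, *Bmp8a* was lower in the knockout IEE, with a log2 fold change of -1.44, and *Fst* was higher, at 1.81. *Bmp8a* alone was past the criterion of the edgeR quasi-likelihood test, which asks for a log2 change of 1 or more in either direction and an adjusted p not above 0.05. *Fst* missed it narrowly and was past it once the replicate numbers were used as a block. The labels do not name such pairs, which were taken from the same data. For the other 8 genes, *Bmp2*, *Bmp3*, *Bmp4*, *Bmp7*, *Bmpr1a*, *Bmpr2*, *Id1* and *Smad6*, log2 fold changes lay between -0.43 and 0.61 and none was called by edgeR, with the block or by DESeq2.

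*Bmp8a* has a close copy, *Bmp8b*, on the same chromosome, and the sequences of both bear on how its reads were counted. The coding sequences of 1236 and 1197 bases, taken from GENCODE M21 transcripts, were identical at 1053 of 1197 aligned bases (88.0%). The longest run without a difference was 182 bases, and 109 of the 1137 windows of 100 bases in *Bmp8a* (9.59%) also occurred in *Bmp8b*. Stretches of 90 bases show where the copies are most and least alike, with capitals for the bases that differ. A read that reaches beyond an identical stretch can still hold differing bases. The stretch most alike lies in exon 2, at chr4:123325199-123325288 on the minus strand for *Bmp8a* and chr4:123114568-123114657 on the plus strand for *Bmp8b* (GRCm38), and has 0 differences:
Bmp8a and Bmp8b, exon 2: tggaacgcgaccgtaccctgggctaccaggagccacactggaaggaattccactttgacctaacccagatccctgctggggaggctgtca
The stretch least alike lies in exon 7, at chr4:123313306-123313395 on the minus strand for *Bmp8a* and chr4:123124409-123124498 on the plus strand for *Bmp8b*, and has 22 differences:
Bmp8a, exon 7: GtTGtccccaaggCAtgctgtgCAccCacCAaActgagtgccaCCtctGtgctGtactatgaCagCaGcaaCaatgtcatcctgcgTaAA
Bmp8b, exon 7: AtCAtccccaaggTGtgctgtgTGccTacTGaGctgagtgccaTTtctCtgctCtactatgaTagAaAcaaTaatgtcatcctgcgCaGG

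The promoters of the same pair are also shown, and any part of them in the results was not tested. Both genes were lower in the knockout than in the control of the same replicate number, in 3 of 3 pairs. Some reads can come from either copy, so these differences are not independent, and the *Bmp8b* groups overlapped. Each window runs from 250 bases before the RefSeq transcription start to 50 bases after it (GRCm38.p6), at chr4:123343203-123343502 on the minus strand for *Bmp8a* and chr4:123104911-123105210 on the plus strand for *Bmp8b*. Both strands were searched for the SMAD-binding letters GTCTG, which read CAGAC on the other strand, and for GGCGCC, and the matches are in capitals:
Bmp8a promoter: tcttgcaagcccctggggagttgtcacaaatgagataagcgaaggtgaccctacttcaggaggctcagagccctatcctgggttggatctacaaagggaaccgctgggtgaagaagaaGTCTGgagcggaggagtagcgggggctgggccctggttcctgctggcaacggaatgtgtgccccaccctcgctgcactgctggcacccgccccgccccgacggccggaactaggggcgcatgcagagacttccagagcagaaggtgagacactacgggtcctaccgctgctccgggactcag
Bmp8b promoter: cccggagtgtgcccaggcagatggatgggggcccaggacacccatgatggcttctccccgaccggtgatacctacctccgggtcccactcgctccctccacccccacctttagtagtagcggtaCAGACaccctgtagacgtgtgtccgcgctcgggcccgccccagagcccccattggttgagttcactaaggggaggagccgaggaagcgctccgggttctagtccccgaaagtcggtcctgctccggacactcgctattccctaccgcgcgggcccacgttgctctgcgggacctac
The letters GTCTG occurred once in each of these windows and in 49.6% of 32851 mouse promoter windows of that length. Of the 10 genes, 5 had a window in the RefSeq table, namely *Bmp4*, *Bmp8a*, *Bmpr1a*, *Bmpr2* and *Smad6*. GGCGCC, found in 11.9% of all windows, occurred once in *Bmpr1a* and once in *Bmpr2*.

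The libraries held 14713918 to 16675133 estimated counts, and 14131 genes passed the filter on low counts, all 10 BMP genes among them. CPM, the counts scaled to an equal library total and computed on TMM-scaled library sizes, give each gene's level in a library. *Kdf1* stood at 52.5, 44.3 and 52.7 CPM in the controls and at 0, 0.0629 and 0 CPM in the knockout libraries, where a count of 0 allows up to 0.198 CPM. That floor covers counting error only. Among 10 markers of dental epithelium, 4 were lower without overlap of the groups, where the groups did not overlap for 30.7% of all genes tested. The summed level of the 10 markers was 10806 to 23739 CPM in controls against 4679 to 8206 CPM in knockouts. The enamel protein gene *Amelx*, which is part of this sum, ranged from 1244 to 10697 CPM against 2.59 to 224 CPM. The gap between the summed levels rests on *Amelx*, and without it the group sums overlap. Among 13 markers of dental papilla and mesenchyme, 5 were higher and 1 lower without overlap, against the same 30.7%. The sum of the 13 markers ranged from 4569 to 23903 CPM against 12462 to 13513 CPM. Endothelial markers summed to 272 to 351 CPM against 319 to 956 CPM and immune markers to 38.7 to 83.2 CPM against 67.6 to 235 CPM, both highest in knockout replicate 1. Marker sums of keratinised epithelium were 37.6 to 150 CPM against 11.8 to 18.8 CPM, of bone 1027 to 1448 against 841 to 1105 CPM, of neural and Schwann cells 182 to 391 against 105 to 194 CPM, of erythroid cells 827 to 1301 against 798 to 1223 CPM and of skeletal muscle 1.57 to 4.02 against 1.98 to 4.59 CPM. In these bulk samples, fewer cells of a type and less RNA per cell cannot be told apart, and the part of these markers in the results below was not tested.

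**Figure D1:**
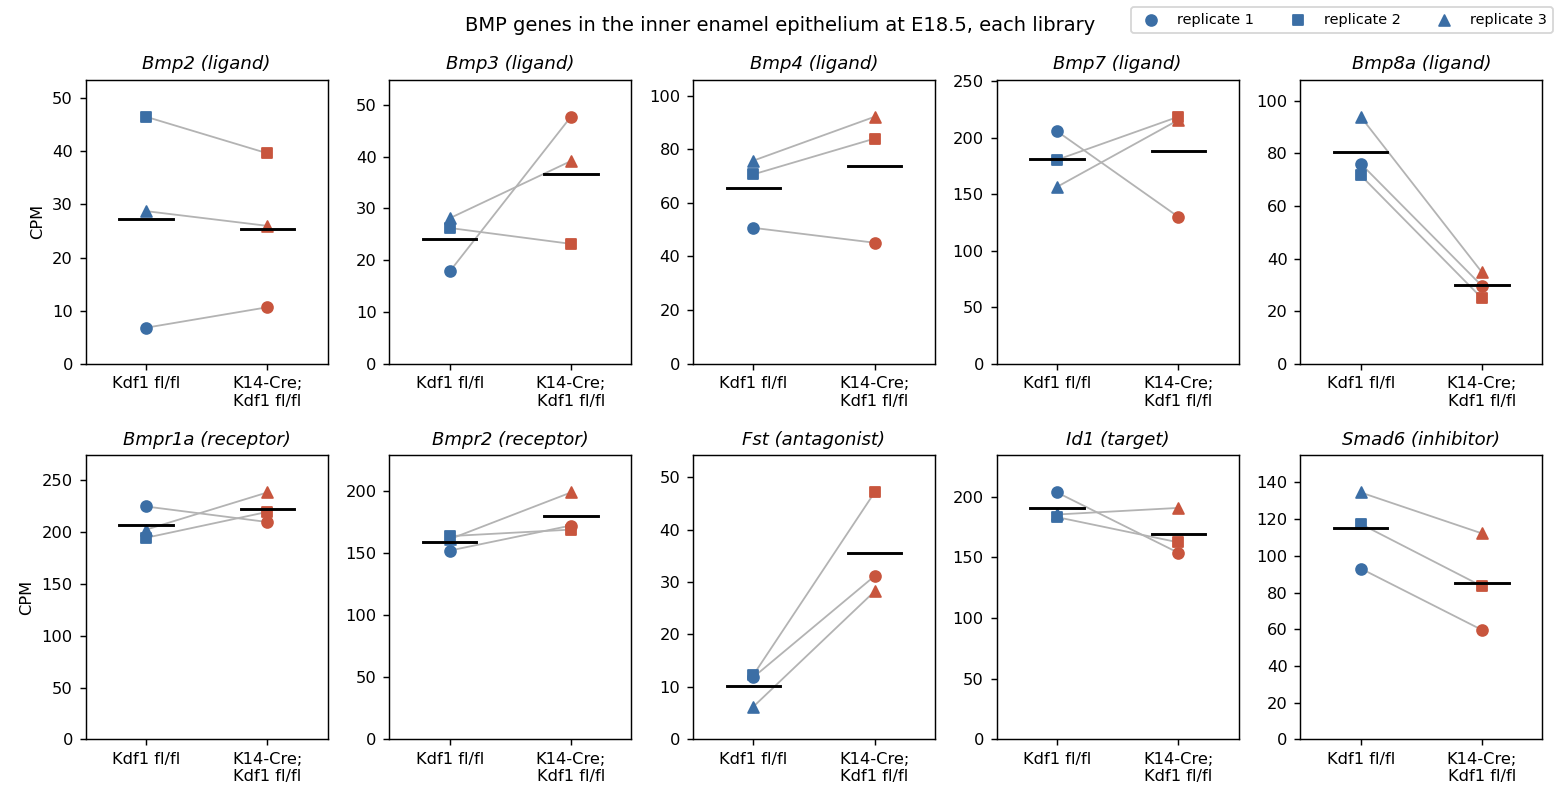
Level of each of the 10 BMP genes in CPM (vertical axis, from 0) in the 3 *Kdf1* fl/fl (blue) and 3 *K14-Cre;Kdf1* fl/fl (red) libraries; grey lines join libraries with the same replicate number and black bars are group means. *Bmp8a*, *Fst* and *Bmpr2* are the genes whose groups do not overlap.

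*Bmp8a* encodes a BMP ligand known chiefly from male germ cells. It was measured at 76.1, 71.7 and 93.9 CPM in control replicates 1, 2 and 3, and at 29.6, 24.9 and 34.8 CPM in the knockout replicates. Every knockout library was below every control library, and the highest knockout value was under the lowest control value by more than the range of either group. The means were 80.6 ± 11.8 CPM and 29.8 ± 4.95 CPM (SD, n = 3 each). The log2 fold change was -1.44 (SE 0.17, 95% interval -1.84 to -1.04), with a Benjamini-Hochberg adjusted p of 0.0498 by edgeR's quasi-likelihood test. Between libraries of the same replicate number the log2 ratio was -1.36, -1.52 and -1.43. With the replicate number as a block the adjusted p was 0.00416, and DESeq2 gave 1.37e-09. The adjusted p lay just inside the threshold, as for 70 genes with an adjusted p between 0.049 and 0.05. *Bmp8a* lost the call when any library except knockout replicate 3 was left out, with adjusted p up to 0.210. The change itself stayed between -1.54 and -1.29 in all 18 alternatives. Of the 10 dental epithelium markers, 8 had negative log2 fold changes, and the epithelial cadherin gene *Cdh1* was the one past the edgeR criterion, at 852, 650 and 1028 CPM in controls and 265, 281 and 350 CPM in knockouts. *Epcam*, *Shh* and *Krt15* of the same list had log2 fold changes of -0.05, 0.27 and 0.37. The part of a lower share of epithelial RNA in the *Bmp8a* difference was not tested.

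The estimated counts of *Bmp8a* were not whole numbers, and neither were those of *Bmp8b*, but their sum was whole in all 6 libraries. *Bmp8a* was given 1211.96, 1182.91 and 1486.87 counts in the controls and 467.91, 395.78 and 528.01 in the knockouts. *Bmp8b* was given 112.04, 173.09 and 314.13 counts in the controls and 59.09, 67.22 and 114.99 in the knockouts. *Bmp8a* thus held 82.1% to 91.5% of the pair's reads in every library, although reads that lie within stretches such as the exon 2 one above can come from either copy. Counted as 1 feature, a choice made after the data were seen, the pair stood at 83.1, 82.1 and 114 CPM in controls and 33.3, 29.1 and 42.4 CPM in knockouts. Its log2 fold change was -1.41 (SE 0.19), with an adjusted p of 0.0498 by edgeR and 0.00423 with the replicate block. Most reads of the sum were those given to *Bmp8a*, so this fit shows that the pair was lower, not which copy was. For *Bmp8b* alone the log2 fold change was -1.27 (SE 0.45), the groups overlapped, and the adjusted p was 0.149 by edgeR and 0.0241 with the block.

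**Figure D2:**
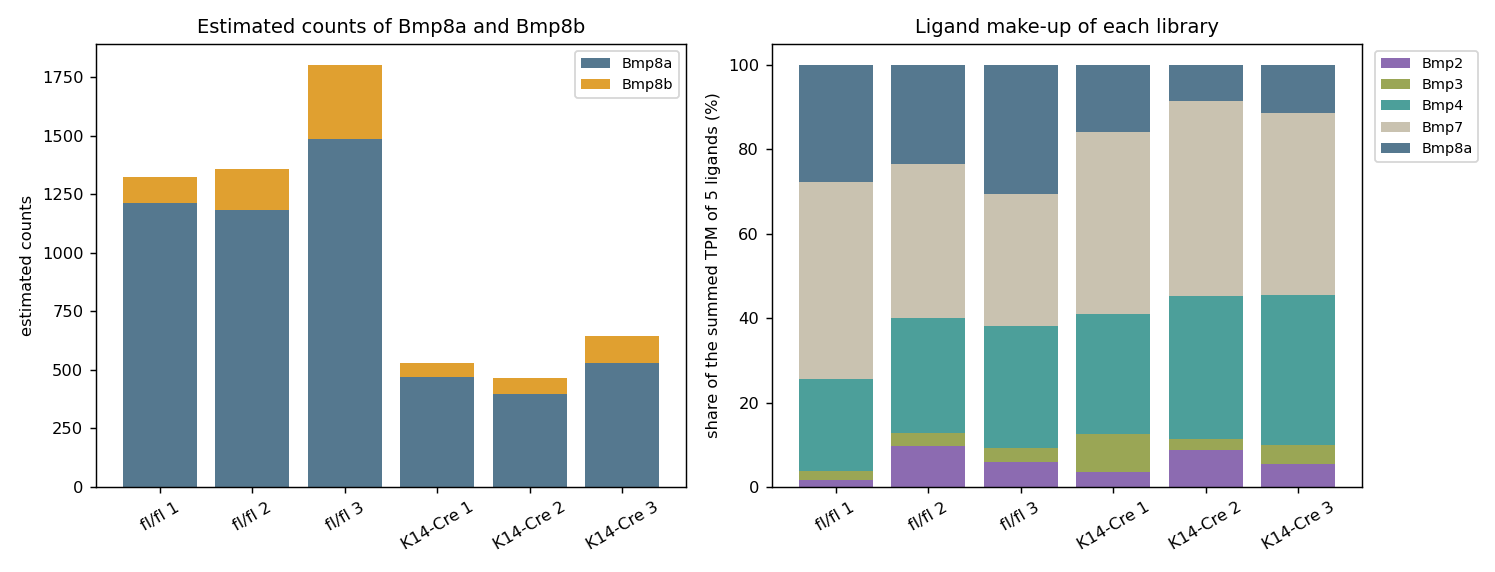
Left, estimated counts of *Bmp8a* and *Bmp8b* stacked for each library; right, share of each of 5 ligands in their summed TPM, transcript numbers scaled by length. The pair sums to 1324 to 1801 counts in *Kdf1* fl/fl and 463 to 643 in *K14-Cre;Kdf1* fl/fl, and the *Bmp8a* share is 23.5% to 30.5% against 8.54% to 15.9%.

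*Bmp4*, the BMP best known from tooth development, was at 50.7, 70.6 and 75.7 CPM in controls and 45.1, 84.0 and 92.1 CPM in knockouts. Replicate 1 was lowest in both groups and the ranges overlapped. Its log2 fold change was 0.17 (SE 0.28, 95% interval -0.50 to 0.83; adjusted p = 0.749 by edgeR). *Bmp7*, a ligand expressed widely in dental epithelium, was at 206, 181 and 157 CPM in controls and 130, 219 and 216 CPM in knockouts. Knockout replicate 1 was the lowest library and the other knockouts were the highest. Its log2 fold change was 0.06 (SE 0.22, 95% interval -0.46 to 0.57; adjusted p = 0.897 by edgeR).

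*Bmp2*, a ligand of odontoblasts and ameloblasts, varied more between replicates than between groups. It was at 6.78, 46.5 and 28.7 CPM in controls and at 10.6, 39.6 and 26.0 CPM in knockouts. Replicate 1 was lowest and replicate 2 highest in both groups, and the range within a group spanned 6.86-fold in controls and 3.73-fold in knockouts. The log2 fold change was -0.11 with a wide 95% interval of -1.74 to 1.53 (SE 0.69; adjusted p = 0.942 by edgeR). With the block, which takes out the shared replicate differences, the change was 0.06 (SE 0.20; adjusted p = 0.867 by edgeR). *Bmp3*, which encodes a BMP that opposes other BMPs, was at 17.8, 26.2 and 28.1 CPM in controls and 47.7, 23.2 and 39.2 CPM in knockouts. The groups overlapped through knockout replicate 2, and the log2 fold change was 0.61 (SE 0.29, 95% interval -0.08 to 1.30; adjusted p = 0.247 by edgeR).

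The level of the 5 ligands together was compared on the TPM scale, which divides by transcript length. They summed to 224, 265 and 234 TPM in controls and 170, 245 and 246 TPM in knockouts, and the groups overlapped. *Bmp8a* made up 27.8%, 23.5% and 30.5% of that sum in controls and 15.9%, 8.54% and 11.3% in knockouts. *Bmp7* was the largest share in every library, at 31.4% to 46.5% in controls and 43.1% to 46.2% in knockouts. *Bmp4* took 21.8% to 29.0% and 28.4% to 35.5%, so that *Bmp8a* passed from a share near that of *Bmp4* to one below it in each knockout. Without *Bmp8a* the sums overlapped as well, at 162, 203 and 163 TPM against 143, 224 and 218 TPM. No test was made of these shares, which depend on each other by construction.

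The type I receptor gene *Bmpr1a* was at 224, 194 and 202 CPM in controls and 210, 219 and 238 CPM in knockouts. The groups overlapped, and the log2 fold change of 0.10 had a 95% interval of -0.16 to 0.37 (SE 0.11; adjusted p = 0.611 by edgeR). The type II receptor gene *Bmpr2* was at 152, 164 and 161 CPM in controls and 172, 169 and 199 CPM in knockouts. Every knockout library was above every control, but by little, and the log2 fold change was 0.18 (SE 0.11, 95% interval -0.08 to 0.44; adjusted p = 0.356 by edgeR). Both intervals lie inside a log2 change of 1 in either direction.

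*Fst* encodes follistatin, a secreted protein that binds activins with high affinity and some BMPs more weakly. It was at 11.9, 12.3 and 6.25 CPM in controls and at 31.1, 47.1 and 28.2 CPM in knockouts. All 3 knockout libraries were above all 3 controls, and the lowest knockout was over the highest control by more than the control range. The means were 10.1 ± 3.37 CPM and 35.5 ± 10.1 CPM (SD, n = 3 each), a ratio of 3.50. The log2 fold change was 1.81 (SE 0.32, 95% interval 1.06 to 2.55), with an adjusted p of 0.0582 by edgeR, outside the threshold. With the replicate block the adjusted p was 0.00695, and in DESeq2 it was 5.51e-06. Between libraries of the same number the log2 ratio was 1.39, 1.94 and 2.17. The difference kept its direction in all 17 alternatives, between 1.55 and 1.96, and was past the criterion in 3 of them. When 1 library was left out, the adjusted p by edgeR ran from 0.0476 to 0.217. Of the 13 markers of dental papilla and mesenchyme, 8 had positive and 5 negative log2 fold changes. *Twist1*, a transcription factor of mesenchyme, was past the edgeR criterion upward, at 9.29, 16.5 and 8.97 CPM in controls and 75.9, 45.8 and 41.9 CPM in knockouts. The odontoblast gene *Dspp* was lower without overlap, at 484 to 3488 CPM against 16.0 to 449 CPM. *Barx1*, a homeobox gene of molar mesenchyme, was at 25.9, 78.9 and 22.6 CPM in controls and 90.8, 228 and 64.3 CPM in knockouts. Its groups overlapped, and its adjusted p was 0.181 by edgeR. The part of mesenchymal RNA in the *Fst* difference was not tested.

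Relative to the BMP ligands of the set, *Fst* rank and level also differed between the groups on the TPM scale. It was equal to 3.94%, 3.65% and 1.83% of the summed ligand TPM in controls and to 14.8%, 14.5% and 8.27% in knockouts. Relative to *Inhba*, which encodes an activin subunit, *Fst* was not higher in knockouts. The ratio of *Fst* to *Inhba* TPM was 7.70, 10.1 and 5.28 in controls and 1.04, 7.79 and 4.52 in knockouts, with overlap of the groups. *Fst* was at 8.85, 9.66 and 4.28 TPM in controls, all below *Bmp8a* at 62.46, 62.17 and 71.5 TPM. In knockouts *Fst* was at 25.23, 35.45 and 20.36 TPM, and the libraries overlapped those of *Bmp8a* at 27.04, 20.93 and 27.84 TPM.

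*Smad6* encodes an inhibitory SMAD that is induced by BMP signalling and blocks it. It was at 93.1, 117 and 135 CPM in controls and 59.7, 83.5 and 112 CPM in knockouts. The groups overlapped, but replicate 1 was lowest and replicate 3 highest in both, and each knockout library was below the control of the same number, by log2 ratios of -0.64, -0.49 and -0.26. *Smad6* had a log2 fold change of -0.43 (SE 0.24, 95% interval -1.01 to 0.14). The adjusted p was 0.313 by edgeR and 0.0622 with the block, and the fold criterion was not reached in either. *Id1*, a direct target of BMP-activated SMADs that encodes an inhibitor of helix-loop-helix factors, was at 203, 183 and 185 CPM in controls and 154, 162 and 191 CPM in knockouts. Knockout replicate 3 lay within the control range and the others below it. *Id1* had a log2 fold change of -0.17 (SE 0.12, 95% interval -0.46 to 0.11; adjusted p = 0.416 by edgeR).

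**Figure D3:**
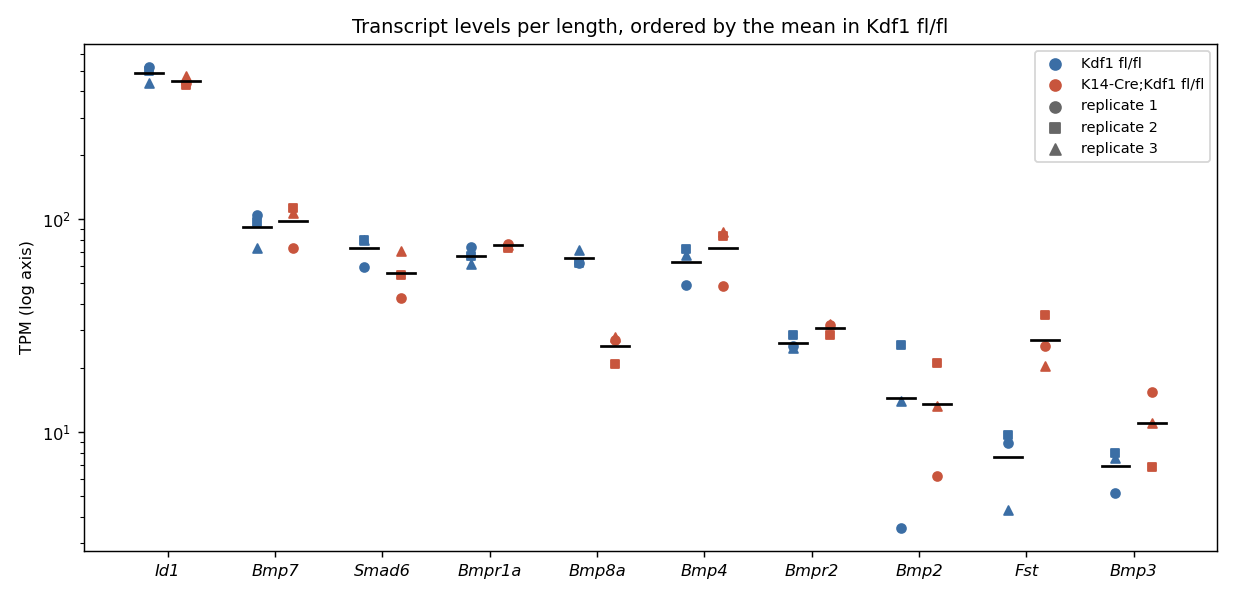
TPM of the 10 genes on a log axis, ordered by their mean in *Kdf1* fl/fl, with each library as a point (blue *Kdf1* fl/fl, red *K14-Cre;Kdf1* fl/fl, shape for the replicate number) and group means as black bars. *Id1* is highest in both groups, and *Bmp8a* and *Fst* are the genes with the widest gap between red and blue points.

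Compared per length, *Id1* had the highest level of the 10 genes, with a mean of 485 TPM in controls and 445 TPM in knockouts. In controls, *Bmp7* (91.5 TPM), *Smad6* (73.1 TPM), *Bmpr1a* (67.4 TPM), *Bmp8a* (65.4 TPM) and *Bmp4* (63.1 TPM) came next, and each overlapped its neighbour in this order. *Bmpr2* (26.3 TPM), *Bmp2* (14.4 TPM), *Fst* (7.60 TPM) and *Bmp3* (6.89 TPM) were lower, again with overlap between neighbours. The order had gaps without overlap below *Id1* and below *Bmp4*. In knockouts the upper group held *Bmp7* (97.7 TPM), *Bmpr1a* (75.3 TPM), *Bmp4* (73.0 TPM) and *Smad6* (55.8 TPM), and the gaps lay below *Id1* and below *Smad6*. *Bmpr2* (30.9 TPM), *Fst* (27.0 TPM), *Bmp8a* (25.3 TPM), *Bmp2* (13.5 TPM) and *Bmp3* (11.1 TPM) followed. *Bmp8a* thus moved from the fifth place to the eighth, and *Fst* from the ninth to the seventh.

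The number of BMP genes called was set beside that of all genes. In the edgeR test 1 of 10 was past the criterion, where 61 of 14131 genes (0.432%) were. With the replicate block 2 of 10 were past it, against 6.09% of all genes, and with DESeq2 also 2 of 10, against 6.94%. At an unadjusted p of at most 0.05 there were 2 of 10, against 24.5% of all genes, and the groups did not overlap for 3 of 10, against 30.7%. At these last 2 measures the share of BMP genes was no higher than that of all genes, while in the 3 fits with the criterion it was higher, from 1 or 2 genes. The median log2 fold change of the 10 genes was 0.08 and that of all genes tested was -0.00426.

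**Figure D4:**
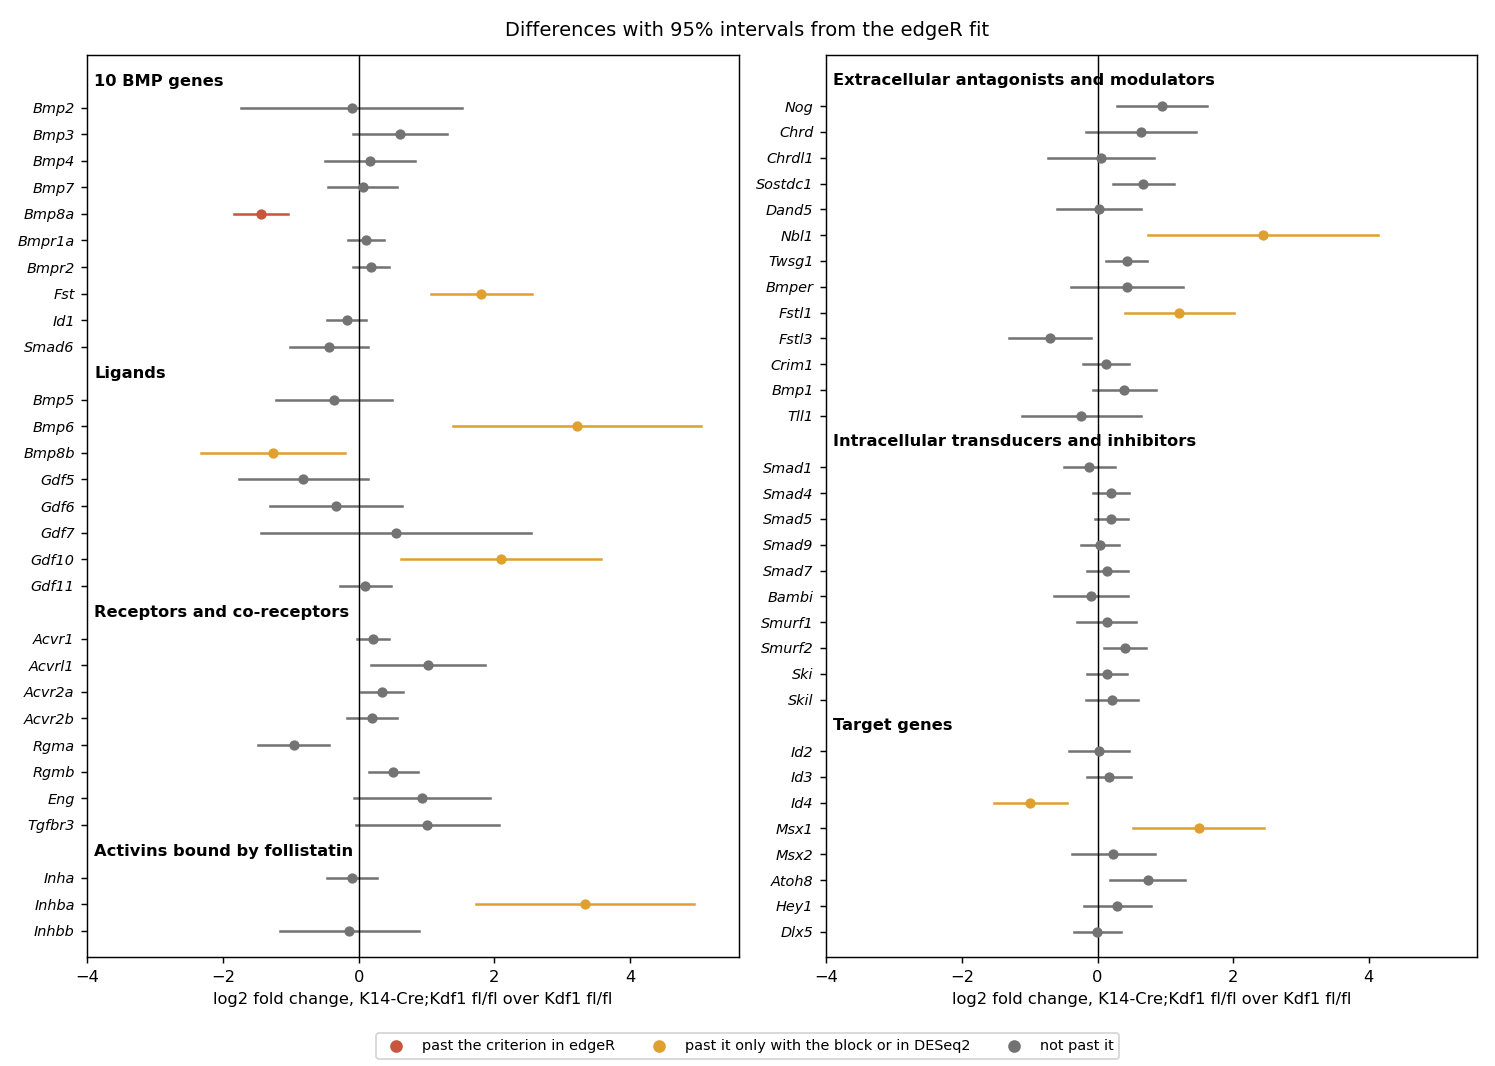
Log2 fold change (*K14-Cre;Kdf1* fl/fl over *Kdf1* fl/fl, horizontal axis) with its 95% interval from edgeR for the 10 genes and the tested genes of the wider pathway list, with 1 of them not shown; red marks genes past the criterion in edgeR, orange those past it with the replicate block or in DESeq2 alone, grey the others. *Bmp8a* is the red point, at -1.44, and *Fst* is orange at 1.81.

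A wider list of 62 BMP pathway genes was described in the same fit, of which 59 were in the table and 51 passed the filter. In edgeR 0 of 51 were past the criterion, against 0.432% of all genes, while 15 were higher and 4 lower at an unadjusted p of at most 0.05, against 24.5%. With the replicate block 7 were higher and 2 lower, against 6.09% of all genes in both directions, and DESeq2 called 7 higher and 0 lower, against 6.94%. Over all genes these fits also called more higher than lower, 588 and 272 with the block and 714 and 266 with DESeq2. The median log2 fold change was 0.20, with 38 positive and 13 negative values, and the groups did not overlap for 16, of which 14 were higher. The share of genes without overlap was close to the 30.7% of all genes. *Bmp10*, *Gdf2* and *Gdf3* were not analysed here.

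The genes called with the block were mostly extracellular. The list was itself rich in such genes, with 8 ligands, 14 antagonists and modulators and 3 activin subunits among the 51 tested. *Inhba*, the activin A subunit that follistatin binds, was at 4.33, 3.39 and 3.28 CPM in controls and 78.3, 16.2 and 16.6 CPM in knockouts (log2 fold change 3.33, SE 0.68; adjusted p 0.0674 by edgeR and 0.0186 with the block). *Inhba* was highest in knockout replicate 1, and without that library its log2 fold change was 2.18. The endothelial and immune marker sums were also highest there, and the part of other cell types in the *Inhba* difference was not tested.

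A further 4 genes of the wider list that act outside the cell were past the criterion with the block in the upward direction. The antagonist gene *Nbl1* had a log2 fold change of 2.44 (adjusted p 0.113 by edgeR and 0.0088 with the block), which was 3.35 without control replicate 2 and 1.82 without knockout replicate 2. The *Nbl1* groups overlapped. The ligand gene *Bmp6* stood at 0.691, 1.21 and 0.442 CPM in controls and 12.4, 7.99 and 1.58 CPM in knockouts, with adjusted p 0.0815 by edgeR and 0.0176 with the block. Its log2 fold change was 3.21, or 2.61 without knockout replicate 1. *Gdf10*, a distant ligand of the family, had a log2 fold change of 2.10 (adjusted p 0.114 by edgeR and 0.0425 with the block), or 1.49 without knockout replicate 2. *Fstl1*, which encodes a follistatin-like protein, had 1.20 (adjusted p 0.105 by edgeR and 0.0390 with the block). The *Fstl1* groups overlapped, and without knockout replicate 1 its log2 fold change was 0.946, below the fold criterion. The classical antagonist *Nog* was at 17.3 ± 5.72 CPM and 33.5 ± 7.83 CPM (SD, n = 3 each), without overlap, with adjusted p 0.114 by edgeR and 0.0534 with the block. *Sostdc1*, an antagonist known for its effect on cusp pattern and tooth number, was at 439 ± 96.7 CPM and 701 ± 83.9 CPM, also without overlap, with adjusted p 0.107 by edgeR and 0.0677 with the block. *Grem1* did not pass the filter and was at or below 1.52 CPM in every library.

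Receptors and intracellular transducers of the wider list held no gene past the criterion in any of the 3 fits. Of the 8 receptors and co-receptors tested, 7 had positive log2 fold changes and 1 a negative one, with a median of 0.43. The groups did not overlap for 4 of these 8, with 3 higher and 1 lower, against 30.7% of all genes. For the 10 transducers and inhibitors tested, the median was 0.14 and 2 did not overlap. *Bmpr1b* did not pass the filter, with at most 0.443 CPM in any library. *Acvr1*, a type I receptor, and *Acvr2a*, a type II receptor, had log2 fold changes of 0.21 (adjusted p = 0.240 by edgeR) and 0.35 (adjusted p = 0.165 by edgeR). The signal transducers *Smad1*, *Smad5* and *Smad4* had -0.12, 0.20 and 0.20 (adjusted p 0.677, 0.260 and 0.327 by edgeR), and the inhibitory *Smad7* had 0.14 (adjusted p 0.518 by edgeR), against -0.43 for *Smad6*.

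Among 8 further target genes, 1 was called upward and 1 downward with the block, against 6.09% of all genes. In edgeR 0 of them were called, against 0.432% of all genes. *Msx1*, a homeobox gene of dental mesenchyme that BMP4 induces, was at 22.1, 60.8 and 23.4 CPM in controls and 121, 100 and 77.5 CPM in knockouts. Its log2 fold change was 1.49 (SE 0.41; adjusted p 0.0988 by edgeR and 0.0387 with the block), or 2.12 without control replicate 2. *Id4*, a relative of *Id1*, was at 419, 325 and 423 CPM in controls and 140, 193 and 255 CPM in knockouts, with -0.99 in edgeR (adjusted p 0.0777) and -1.02 with the block (adjusted p 0.0289). *Id2*, *Id3* and *Msx2* had log2 fold changes of 0.02, 0.17 and 0.23 (adjusted p 0.953, 0.488 and 0.619 by edgeR). Of the *Id* genes, *Id4* was therefore the one past the criterion, in the blocked fit, while the interval of *Id1* reached no further than -0.46.

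Exons of *Bmp4*, *Bmpr1a* and *Fst* overlap those of genes on the opposite strand in GENCODE M21, by 89, 290 and 115 bases. Whether counting used the strand is not given in the sources used here, so reads from these bases cannot be told apart by strand.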

How the data were processed

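RNA-seq was performed on laser-captured IEE of the mandibular first molar at E18.5, with 3 libraries each of *K14-Cre;Kdf1* fl/fl knockouts and of *Kdf1* fl/fl controls (TruSeq, total RNA), grouped by the labels. The submitters' processing notes list BWA 0.7.12, Picard 2.6.0 and StringTie, without their roles; the build, annotation and strand setting are not given in the sources used here. The authors deposited estimated counts per gene, of which 10.9% to 11.5% in a library are not whole, and TPM, which the authors scaled by transcript length and depth. The deposited FPKM values were not used.

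Estimated counts were rounded. With edgeR 4.0.16 (R 4.3.3), filterByExpr kept 14131 of 18152 genes, libraries were scaled by TMM (factors 0.950 to 1.03), and groups were compared by robust quasi-likelihood F-tests, two-sided, with Benjamini-Hochberg adjustment over all genes tested. The criterion was a log2 change of 1 or more in either direction with an adjusted p not above 0.05. Each p-value weighs the group difference against the spread between these libraries, which edgeR estimates with information shared across genes. Floors of 3 counts cover counting error only, since PCR copies are not independent molecules. CPM was computed on TMM-scaled library sizes.

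The members, the wider pathway list, the markers and the tests were chosen with earlier results of these data known. All 10 members were named; of the wider list, genes past the criterion in edgeR, with the block or in DESeq2, up to 12 by absolute log2 fold change, and a fixed set of receptors, antagonists, transducers, targets and *Inhba*, whatever their values. Log2 CPM correlated at 0.950 to 0.980 within groups and 0.895 to 0.965 between them, and no library was present in duplicate. Deviations from the group means correlated at 0.135, 0.324 and 0.499 between libraries with the same replicate number, so the numbers were taken as pairs from the data, since the labels name no shared litter. Knockout replicate 1 correlated slightly more with control replicate 2 (0.144) than with control replicate 1, which leaves the pairing, and the calls that need the block, less certain. Alternatives were the replicate block, DESeq2 1.42.0, limma-voom and limma 3.58.1 on log2(TPM + 1) and log2(TPM + 0.1), other scalings and filters, a fit without the robust option, other thresholds, omission of each library and, after the data were seen, *Bmp8a* and *Bmp8b* as 1 feature. The procedure was tested on simulated data. Markers came from 9 lists. The values of 1 gene of the wider list, which is included in the counts, are not reported here.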

Additional observations from a re-analysis of the deposited data

How the results depend on the processing

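The count of the 10 BMP genes past the criterion (1 in edgeR) was 2 with DESeq2, with the replicate block, at an adjusted p of at most 0.1 and at an unadjusted p of at most 0.05 with no fold criterion. It was 0 with limma-voom, with RLE size factors, with library size alone and with at least 10 counts in every library, and 0 to 2 when 1 library was left out. It was 2 without knockout replicate 3 and 0 without any other library. For the wider list (0 in edgeR), the counts were 7 with DESeq2, 9 with the replicate block, 4 at an adjusted p of at most 0.1, 19 unadjusted, and 0 to 6 when 1 library was left out, with 6 without knockout replicate 3. Over all genes (61 in edgeR), they were 980 with DESeq2, 6 with limma-voom, 16 with limma on log2(TPM + 1), 7 with RLE size factors, 9 with library size alone, 103 with no filter on low counts, 6 with at least 10 counts, 860 with the replicate block, 669 at an adjusted p of at most 0.1, 3468 unadjusted, and 1 to 465 when 1 library was left out. The 465 came without knockout replicate 3. The split of 20 higher and 41 lower became 23 and 38 with upper quartile scaling, 1 and 6 with RLE size factors and 2 and 7 with library size alone, and these scalings moved the median of all genes by at most 0.06.

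The fold changes of *Bmp8a* and *Fst* kept their direction under every alternative run, as did those of *Bmp3*, *Bmpr1a*, *Bmpr2*, *Id1* and *Smad6*. *Bmp8a* lost the call in 9 of its 18 alternatives and *Fst* gained it in 3 of 17. The log2 fold change of *Bmp2* (-0.11 in edgeR) turned to 0.0804 with limma-voom, 0.11 on log2(TPM + 1), 0.15 on log2(TPM + 0.1) and 0.0620 with the replicate block, and ranged from -0.57 to 0.51 when 1 library was left out, with 0.51 without control replicate 2 and 0.27 without knockout replicate 1. *Bmp4* ranged from -0.0134, without knockout replicate 3, to 0.44. *Bmp7* ranged from -0.0408 to 0.28 and was -0.0408 without control replicate 3, -0.0362 without knockout replicate 2 and -0.0374 without knockout replicate 3. The block changed the call of *Fst* and of 9 genes of the wider list. The causes were not tested.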
